A study of Mus musculus with 12 samples.

Results

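The 49 genes described here carry out DNA replication in S phase. They were chosen by symbol from a list of replication and S-phase genes, and all 49 were found among the 46731 genes of the table. The list holds 4 origin-licensing genes, the 6 subunits of the MCM2-7 helicase, 6 genes of helicase activation, 6 of the sliding clamp and its loader, 9 polymerase and primase subunits, 5 of lagging-strand maturation and single-strand binding, 5 of deoxynucleotide supply, 5 of chromatin assembly and repair at the fork, and 3 drivers of the step from G1 into S phase. The rule itself uses no measured value.

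RNA-seq was done on ATDC5 cells, a chondrogenic mouse line derived from teratocarcinoma, carrying either a lentiviral control hairpin (shRNA-NC) or a lentiviral hairpin against *Ddx5* (shRNA-*Ddx5*). *Ddx5* encodes a DEAD-box RNA helicase. Each line was collected after 6 h without stimulation or with cytokines, namely IL-1β at 5 ng/ml plus TNF-α at 25 ng/ml, with 3 libraries in each of the 4 groups, 12 in all. Both hairpins came in a cassette with a U6 promoter and puromycin resistance, and 1 hairpin sequence against *Ddx5* was used, so that an effect of that hairpin other than on *Ddx5* cannot be told apart from the knockdown.

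Replication is prepared in G1, when the origin recognition complex, CDC6 and CDT1 load the MCM2-7 helicase onto DNA. In S phase, CDC45 and the GINS complex join MCM2-7 to form the active helicase, polymerase alpha with primase lays down primers, and polymerases delta and epsilon extend them with the clamp PCNA, which the RFC complex loads. Many of these genes are targets of E2F transcription factors and are transcribed as cells pass from G1 into S phase, so that their RNA is widely used as a sign of proliferation.

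To show how E2F words are spread over these promoters, the bases before the start were read for 5 genes, *Mcm6* with the most words found, *Orc1* and *Cdc6*, which rose after the knockdown in medium, *Pola1*, which fell, and *Tk1*, which rose and held none. Each run is the 150 bases before the start in RefSeq's promoter table on GRCm38.p6, 5′ to 3′ on the gene's own strand. The capitals mark the E2F words TTTCCCGC, TTTGGCGC, TTTCGCGC and TTTGCCGC or their reverse complements. The windows are chr1:128359706-128359855 (minus strand) for *Mcm6*, chr4:108579304-108579453 (plus) for *Orc1*, chr11:98908001-98908150 (plus) for *Cdc6*, chrX:93632156-93632305 (minus) for *Pola1* and chr11:117826015-117826164 (minus) for *Tk1*.
Mcm6: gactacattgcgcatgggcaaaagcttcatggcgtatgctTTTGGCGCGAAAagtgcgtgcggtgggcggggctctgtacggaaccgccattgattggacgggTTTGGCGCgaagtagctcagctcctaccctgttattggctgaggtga
Orc1: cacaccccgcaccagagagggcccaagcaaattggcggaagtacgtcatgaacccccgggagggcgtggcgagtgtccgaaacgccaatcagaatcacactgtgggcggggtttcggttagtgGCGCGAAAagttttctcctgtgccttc
Cdc6: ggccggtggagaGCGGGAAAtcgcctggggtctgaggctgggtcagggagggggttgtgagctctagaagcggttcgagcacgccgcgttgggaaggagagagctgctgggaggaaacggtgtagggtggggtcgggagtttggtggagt
Pola1: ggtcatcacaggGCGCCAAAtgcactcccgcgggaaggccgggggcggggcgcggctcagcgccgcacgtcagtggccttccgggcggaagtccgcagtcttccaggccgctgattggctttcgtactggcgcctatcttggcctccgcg
Tk1: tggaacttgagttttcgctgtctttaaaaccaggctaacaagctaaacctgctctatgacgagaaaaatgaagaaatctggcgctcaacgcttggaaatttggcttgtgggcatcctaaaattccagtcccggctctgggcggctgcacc
In *Mcm6*, 2 of the 3 words overlap in the first capital run. The table held a promoter for 41 of the 49 genes. From 250 bases before to 50 bases after the start, 15 of the 41 (36.6%) held an E2F word in at least 1 listed promoter, against 704 of 27025 genes (2.60%). The share was 6 of 22 genes that rose after the knockdown in medium, 2 of 3 that fell and 7 of 16 that passed neither way. The CCAAT box (CCAAT, both strands) was found in 24 of the 41 genes (58.5%) and in 41.1% of all genes, and the CHR word TTTGAA in 5 (12.2%) and 20.2%. A match describes letters only and does not show binding.

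The libraries held 14119199 to 19276520 fragments assigned to genes. *Ddx5* (gene 13207, chr11:106671181-106680011 on GRCm39) was at 325, 337 and 294 FPKM, fragments per kilobase of gene scaled to the size of the library, in shRNA-NC and 90.7, 118 and 99.9 FPKM in shRNA-*Ddx5* cells in medium, and at 327, 302 and 301 against 101, 93.6 and 104 FPKM with cytokines. Where values of both lines are set against each other, here and in what follows, those of shRNA-NC come first, each for replicates 1, 2 and 3. Every shRNA-*Ddx5* library lay below every shRNA-NC library, with log2 fold changes of -1.63 ± 0.10 in medium (adjusted p = 9.48e-07) and -1.63 ± 0.10 with cytokines (adjusted p = 9.07e-07). Of 9 cartilage markers, *Sox9* and *Col2a1* were at means of 27.5 ± 0.327 FPKM and 12.4 ± 3.05 FPKM in shRNA-NC cells in medium (n = 3, SD), whereas *Acan*, *Matn1* and *Matn3* were near 0. The summed FPKM of the 9 was 39.2 to 44.4 for shRNA-NC and 26.3 to 30.1 for shRNA-*Ddx5* in medium, and 12.9 to 18.01 and 7.32 to 8.09 with cytokines. Summed markers of haematopoietic cells (5 genes), endothelium (4) and epithelium (4) reached at most 2.10, 0.151 and 0.188 FPKM, with only *Cd68* at 1 FPKM or more. In medium the lower sum rested mainly on *Col2a1* (-2.80 ± 0.23 on the log2 scale, adjusted p = 5.92e-06), since the other 2 of the 3 markers that passed the filter were not called (*Sox9* -0.19 ± 0.085, adjusted p = 0.0947, and *Sox5* -0.17 ± 0.088, adjusted p = 0.131). The part of these marker differences in the results on replication genes was not tested.

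All 49 replication genes were expressed. None was under 1 FPKM in any library, all passed the filter (at least 1 FPKM in at least 3 libraries), and 135 (*Gins1*) to 8725 (*Rrm1*) fragments lay behind a value. Their FPKM, a level scaled by gene length, ran from 3.20 (*Pole2*) to 266.6 (*Pcna*). In shRNA-NC cells in medium the highest mean was that of *Pcna*, at 189 ± 15.9 FPKM, followed by *Rpa1* at 92.3 ± 1.99 FPKM and *Slbp* at 82.1 ± 5.13 FPKM, and the lowest were *Pole2* at 5.45 ± 0.787 FPKM, *Gins1* at 5.94 ± 0.401 FPKM and *Orc1* at 6.44 ± 0.646 FPKM (n = 3 each, SD). The sum over the 49 genes was 1987, 1925 and 2001 FPKM in shRNA-NC and 2626, 2389 and 2556 FPKM in shRNA-*Ddx5* cells in medium, and 2268, 2035 and 2009 against 2437, 2506 and 2383 FPKM with cytokines. Both shRNA-*Ddx5* groups lay above both shRNA-NC groups in this sum. In bulk RNA, a larger share of cells in S phase and more RNA per cell cannot be told apart.

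**Figure D1:**
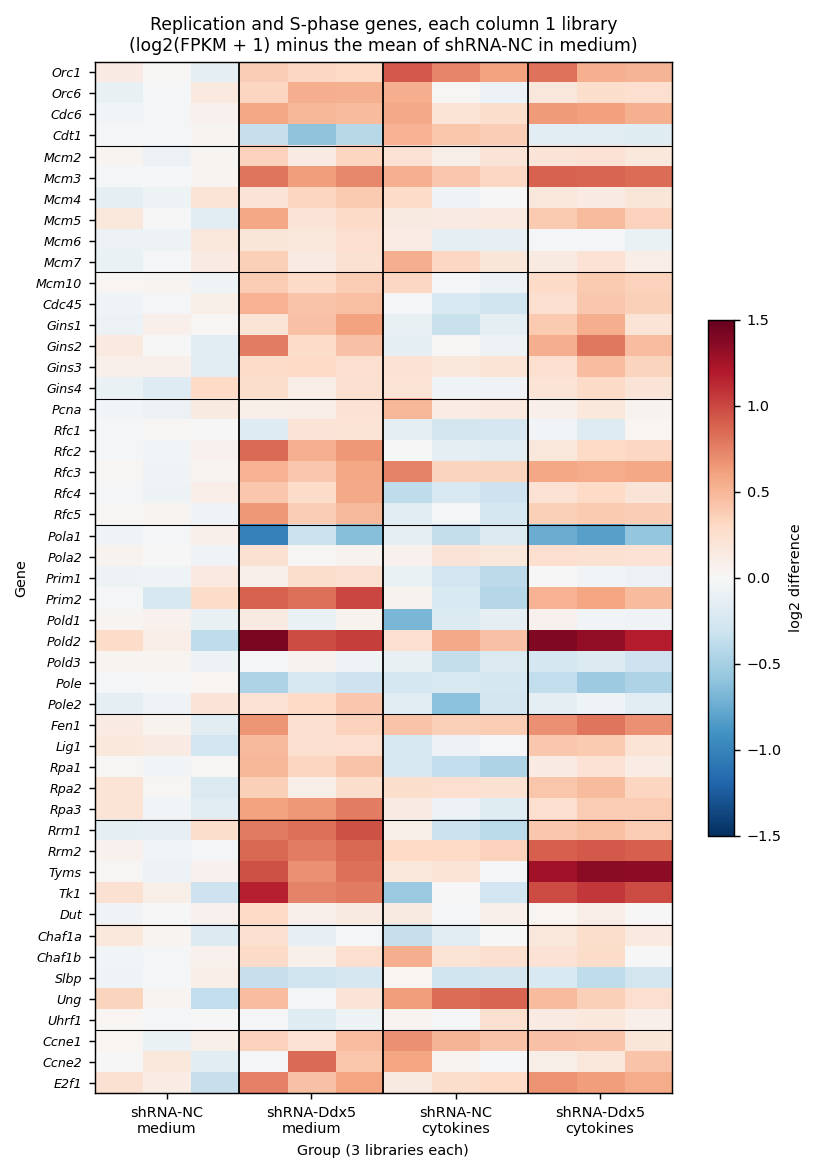
Heat map of the 49 genes (rows, in blocks by role) in the 12 libraries (columns). Colour gives log2(FPKM + 1) minus the mean of the 3 shRNA-NC libraries in medium, and red prevails in both shRNA-Ddx5 blocks, with Tk1, Tyms and Pold2 the deepest and Cdt1, Pola1 and Pole in blue.

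The first question was which replication genes responded to the knockdown in each medium. After the knockdown in medium 27 of the 49 genes rose and 4 fell (limma, Benjamini-Hochberg adjusted p under 0.05), while 25.3% of the 12368 genes tested rose and 21.7% fell (47.0% together). The median log2 fold change was 0.33 for the 49 genes and 0.028 for all genes tested. With cytokines 20 rose and 3 fell, against 23.5% and 22.1% of all genes tested (45.6% together), and the medians were 0.21 and 0.010. Groups did not overlap for 30 genes that were higher and 5 that were lower in shRNA-*Ddx5* cells in medium (28.7% and 24.8% of all genes tested), and for 26 and 4 with cytokines (31.7% and 29.9%). With quantile normalization the counts were 21 up and 5 down in medium and 15 and 7 with cytokines. The medians of the 49 were then 0.23 and 0.11, against -0.0036 and -0.015 for all genes tested. With scaling to the sum of fragments the counts were 22 and 4, and 17 and 6. The medians were then 0.24 and 0.16, against -0.051 and -0.038.

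**Figure D2:**
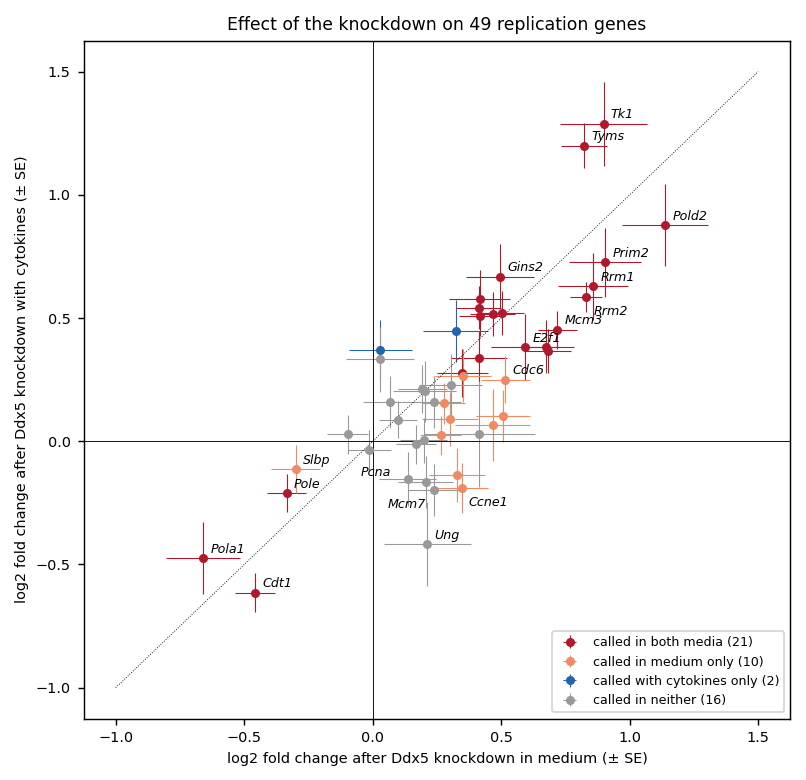
Log2 fold change of each of the 49 genes after the Ddx5 knockdown in medium (x axis) and with cytokines (y axis), with standard errors as bars. Most points lie right of and above 0, Tk1, Tyms and Pold2 lie farthest out, and Cdt1, Pola1 and Pole lie below 0 on both axes.

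Deoxynucleotide supply had the highest median rise of the 9 roles, 0.83 on the log2 scale in medium and 0.63 with cytokines. Of its 5 genes, 4 rose in medium and the same 4 rose with cytokines. For this role and those that follow, the shares of all genes tested were 25.3% up and 21.7% down in medium. With cytokines they were 23.5% and 22.1%. *Tk1* (gene 21877, chr11:117706345-117716913 on GRCm39, as are the gene positions that follow) encodes thymidine kinase, which salvages thymidine. It was at 62.9, 57.1 and 43.03 FPKM in shRNA-NC and 122, 90.8 and 92.9 FPKM in shRNA-*Ddx5* cells in medium, and at 36.03, 53.7 and 43.9 against 106, 113 and 107 FPKM with cytokines. Every shRNA-*Ddx5* library exceeded every shRNA-NC library in each medium, with log2 fold changes of 0.90 ± 0.17 (adjusted p = 0.00127) and 1.29 ± 0.17 (adjusted p = 0.000114). *Tyms* (gene 22171, chr5:30243544-30279261) encodes thymidylate synthase, which makes dTMP. Its values were 9.31, 8.56 and 9.67 FPKM in shRNA-NC and 18.7, 15.4 and 17.04 FPKM in shRNA-*Ddx5* cells in medium, and 10.3, 10.8 and 9.08 against 23.3, 25.02 and 24.7 FPKM with cytokines. The groups were apart in both media, at 0.82 ± 0.090 (adjusted p = 3.32e-05) and 1.20 ± 0.090 (adjusted p = 2.64e-06) on the log2 scale, and the shRNA-*Ddx5* libraries with cytokines were the highest of all.

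*Rrm1* and *Rrm2* encode the large and small subunits of ribonucleotide reductase, which turns ribonucleotides into deoxynucleotides. *Rrm1* was at 56.004, 56.6 and 74.4 FPKM in shRNA-NC and 107, 111 and 121 FPKM in shRNA-*Ddx5* cells in medium, and at 65.5, 49.4 and 46.5 against 82.4, 85.1 and 80.8 FPKM with cytokines. *Rrm2* was at 30.3, 28.2 and 28.3 against 53.3, 49.999 and 53.3 FPKM in medium, and at 35.8, 35.9 and 37.1 against 54.9, 55.4 and 54.5 FPKM with cytokines. Both subunits were higher in every shRNA-*Ddx5* library, and the *Rrm2* values lay closer together within groups than those of *Rrm1*. On the log2 scale the rises were 0.86 ± 0.14 in medium (adjusted p = 0.000434) and 0.63 ± 0.14 with cytokines (adjusted p = 0.00313) for *Rrm1*. For *Rrm2* they were 0.83 ± 0.062 (adjusted p = 2.76e-06) and 0.59 ± 0.062 (adjusted p = 2.62e-05). *Dut*, the dUTPase that keeps uracil out of DNA, was the exception in this group. It was at 38.1, 39.4 and 41.4 FPKM in shRNA-NC and 49.1, 41.8 and 43.5 FPKM in shRNA-*Ddx5* cells in medium and its groups did not overlap there, yet it did not pass the test in either medium (0.17 ± 0.079, adjusted p = 0.1001, and -0.012 ± 0.079, adjusted p = 0.914).

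Polymerase and primase subunits moved in both directions, with 2 of 9 (22.2%) up and 2 down in each medium, a share near that of all genes tested in either direction. *Pold2* (gene 18972, chr11:5822180-5828256), an accessory subunit of polymerase delta, was at 47.1, 41.6 and 29.5 FPKM in shRNA-NC and 105, 76.9 and 80.2 FPKM in shRNA-*Ddx5* cells in medium, and at 46.4, 58.03 and 52.8 against 103, 98.5 and 88.97 FPKM with cytokines. No library of one line reached the range of the other in either medium, and the rise was 1.14 ± 0.17 (adjusted p = 0.000252) and 0.88 ± 0.17 (adjusted p = 0.00140) on the log2 scale. *Prim2*, the large primase subunit, was at 9.76, 8.30 and 12.4 against 19.3, 18.6 and 21.1 FPKM in medium and at 10.4, 8.42 and 7.22 against 14.8, 15.6 and 14.3 FPKM with cytokines. It rose by 0.90 ± 0.14 (adjusted p = 0.000362) and 0.73 ± 0.14 (adjusted p = 0.00153), again without overlap. The catalytic primase subunit *Prim1* did not pass the test in either medium (0.19 ± 0.095, adjusted p = 0.118, and 0.21 ± 0.095, adjusted p = 0.0911).

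The catalytic subunits of polymerases alpha and epsilon fell. *Pola1* (gene 18968, chrX:92348372-92675993) was at 20.4, 20.7 and 22.4 FPKM in shRNA-NC and 9.94, 16.7 and 13.2 FPKM in shRNA-*Ddx5* cells in medium, and at 19.1, 16.3 and 17.96 against 12.2, 11.6 and 13.8 FPKM with cytokines. The shRNA-*Ddx5* libraries were below all shRNA-NC libraries in each medium, with log2 fold changes of -0.66 ± 0.14 (adjusted p = 0.00328) and -0.47 ± 0.14 (adjusted p = 0.0197), and the shRNA-*Ddx5* libraries in medium were spread widely. *Pole* was at 22.7, 23.4 and 23.8 against 16.7, 19.6 and 18.6 FPKM in medium and at 19.3, 19.7 and 19.3 against 17.8, 15.6 and 16.6 FPKM with cytokines. It also fell without overlap, with smaller log2 fold changes of -0.33 ± 0.075 (adjusted p = 0.00379) and -0.21 ± 0.075 (adjusted p = 0.0397). The other catalytic subunit, *Pold1* of polymerase delta, was at 20.4, 20.8 and 18.3 against 21.9, 18.4 and 20.6 FPKM in medium and did not pass the test (0.028 ± 0.13, adjusted p = 0.881, and with cytokines 0.33 ± 0.13, adjusted p = 0.0573). With cytokines the call of *Pola1* was lost without shRNA-NC replicate 1 or 3 or shRNA-*Ddx5* replicate 1 or 2, and that of *Pole* was lost in 10 of 20 alternatives.

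Origin licensing was split between *Cdt1*, which fell, and the other 3 genes, which rose in medium. *Cdt1* (gene 67177, chr8:123294754-123299869), which brings MCM2-7 to the origin, was at 65.2, 64.6 and 67.6 FPKM in shRNA-NC and 51.4, 42.9 and 49.1 FPKM in shRNA-*Ddx5* cells in medium, and at 94.98, 88.5 and 85.5 against 58.4, 58.2 and 57.8 FPKM with cytokines. In each medium the lowest shRNA-NC library exceeded the highest shRNA-*Ddx5* library, and the knockdown effects on the log2 scale were -0.46 ± 0.078 (adjusted p = 0.000693) and -0.61 ± 0.078 (adjusted p = 9.20e-05). *Cdc6*, the partner of *Cdt1* in helicase loading, was at 9.65, 9.72 and 10.5 against 15.4, 14.4 and 14.1 FPKM in medium and at 15.3, 11.6 and 12.1 against 16.04, 15.8 and 14.8 FPKM with cytokines. It rose by 0.52 ± 0.095 in medium (adjusted p = 0.00115) without overlap. With cytokines the groups overlapped and the difference of 0.25 ± 0.095 did not pass (adjusted p = 0.0514). *Orc1*, the largest origin recognition subunit, was at 7.05, 6.50 and 5.76 against 8.61, 8.23 and 8.12 FPKM in medium and at 13.1, 11.4 and 10.3 against 12.1, 9.72 and 9.57 FPKM with cytokines. It rose by 0.33 ± 0.11 in medium (adjusted p = 0.0280) and was at -0.14 ± 0.11 with cytokines (adjusted p = 0.338). *Orc6* rose by 0.47 ± 0.15 in medium (adjusted p = 0.0211). The medium calls of *Orc1* and *Orc6* were lost without shRNA-NC replicate 2 or shRNA-*Ddx5* replicate 2 or 3, among others.

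Of the 6 MCM2-7 subunits, 4 rose in medium, and *Mcm3* alone rose with cytokines. *Mcm3* was at 73.9, 74.1 and 77.3 FPKM in shRNA-NC and 131, 117 and 125 FPKM in shRNA-*Ddx5* cells in medium, and at 109, 99.4 and 93.2 against 139, 139 and 135 FPKM with cytokines. The lines were apart in both media, with log2 fold changes of 0.72 ± 0.077 (adjusted p = 3.10e-05) and 0.45 ± 0.077 (adjusted p = 0.000677). The other subunits, which form 1 ring with *Mcm3* in equal numbers, moved less. *Mcm2* was at 76.7, 69.9 and 76.7 against 94.9, 81.3 and 93.05 FPKM in medium and rose by 0.26 ± 0.080 (adjusted p = 0.0179), but with quantile normalization its difference was -0.024. *Mcm5* was at 72.6, 64.98 and 57.4 against 97.1, 74.04 and 79.1 FPKM in medium and rose by 0.35 ± 0.11 (adjusted p = 0.0203). *Mcm4* was at 45.2, 46.96 and 57.3 against 56.6, 62.4 and 65.2 FPKM in medium, where its groups overlapped, and rose by 0.30 ± 0.11 (adjusted p = 0.0416). Each of these 3 calls was lost in 5 or more of the 20 alternatives, and that of *Mcm4* in 14.

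*Mcm6* and *Mcm7* did not pass the test after the knockdown. *Mcm6* was at 58.7, 59.2 and 70.7 against 71.2, 70.1 and 74.7 FPKM in medium and at 67.5, 57.1 and 57.5 against 61.7, 62.1 and 58.3 FPKM with cytokines, with overlap and log2 differences of 0.20 ± 0.092 (adjusted p = 0.0994) and 0.0041 ± 0.092 (adjusted p = 0.976). *Mcm7* was at 68.9, 72.3 and 80.8 against 95.1, 80.6 and 87.01 FPKM in medium and at 108, 91.6 and 84.2 against 80.96, 85.8 and 79.02 FPKM with cytokines. Its differences were 0.24 ± 0.10 (adjusted p = 0.0796) and -0.20 ± 0.10 (adjusted p = 0.143). With cytokines *Mcm2* was at 86.8, 79.1 and 85.1 against 85.3, 86.5 and 83.2 FPKM. *Mcm4* was at 60.1, 47.3 and 49.7 against 55.99, 54.1 and 56.2 FPKM there, and *Mcm5* at 70.97, 70.8 and 71.7 against 85.05, 89.95 and 82.6 FPKM. Of these 3 only *Mcm5* had no overlap with cytokines (0.27 ± 0.11, adjusted p = 0.0654).

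Helicase activation rose in both media, with 5 of 6 genes up in medium and 4 with cytokines. *Gins2*, a subunit of the GINS complex, was at 34.3, 30.9 and 27.6 FPKM in shRNA-NC and 53.4, 37.6 and 42.1 FPKM in shRNA-*Ddx5* cells in medium, and at 27.7, 31.3 and 29.3 against 45.4, 54.2 and 42.9 FPKM with cytokines. All shRNA-*Ddx5* libraries were above the shRNA-NC libraries, with log2 fold changes of 0.50 ± 0.13 (adjusted p = 0.0101) and 0.67 ± 0.13 (adjusted p = 0.00187). *Gins1* and *Cdc45* rose in both media too, *Gins1* by 0.42 ± 0.12 and 0.58 ± 0.12 (adjusted p = 0.0136 and 0.00224) and *Cdc45* by 0.47 ± 0.087 and 0.52 ± 0.087 (adjusted p = 0.00123 and 0.000638). *Mcm10*, which helps activate the loaded helicase, rose by 0.35 ± 0.098 in medium (adjusted p = 0.0130) and 0.28 ± 0.098 with cytokines (adjusted p = 0.0381), the latter with overlap and lost in 12 of the 20 alternatives. *Gins3* rose in medium only (0.28 ± 0.084, adjusted p = 0.0187) and *Gins4* passed in neither (0.20 ± 0.12, adjusted p = 0.196, and 0.20 ± 0.12, adjusted p = 0.201).

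Among the clamp genes, subunits of the loader rose and the clamp itself did not pass the test. *Pcna* was at 183, 177 and 207 FPKM in shRNA-NC and 201, 202 and 219.8 FPKM in shRNA-*Ddx5* cells in medium, and at 267, 203 and 209 against 199, 211 and 195 FPKM with cytokines. The groups overlapped in both media, and the log2 differences stood at 0.14 ± 0.11 (adjusted p = 0.334) and -0.15 ± 0.11 (adjusted p = 0.274). The table also lists a *Pcna* pseudogene, *Pcna-ps2*, at means of 49.2, 64.8, 71.9 and 63.4 FPKM in the 4 groups in the same order, so that reads of the near-identical copies may be split between them. *Rfc2* was at 47.5, 47.1 and 50.6 against 88.1, 70.7 and 76.6 FPKM in medium and at 48.1, 43.8 and 43.1 against 54.7, 59.9 and 60.3 FPKM with cytokines. It rose by 0.68 ± 0.090 (adjusted p = 0.000123) and 0.37 ± 0.090 (adjusted p = 0.00614) with no overlap. *Rfc4* was at 31.1, 29.97 and 34.2 against 42.3, 38.5 and 47.4 FPKM in medium and at 24.03, 26.8 and 25.5 against 37.1, 39.1 and 36.2 FPKM with cytokines, again apart, and rose by 0.41 ± 0.088 (adjusted p = 0.00266) and 0.54 ± 0.088 (adjusted p = 0.000473). *Rfc5* rose in both media and *Rfc3* in medium. The large subunit *Rfc1* was the one loader gene that passed in neither (0.068 ± 0.11, adjusted p = 0.628, and 0.16 ± 0.11, adjusted p = 0.243).

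Of the lagging-strand and single-strand binding genes, 3 of 5 rose in medium and 4 with cytokines. RPA1, RPA2 and RPA3 form the complex that coats single-stranded DNA. *Rpa3*, its smallest subunit, was at 64.2, 54.1 and 49.5 FPKM in shRNA-NC and 85.1, 88.1 and 95.4 FPKM in shRNA-*Ddx5* cells in medium, and at 60.8, 52.4 and 49.04 against 66.4, 72.6 and 72.9 FPKM with cytokines. *Rpa1*, the largest, was at 93.7, 90.03 and 93.1 against 131, 116 and 124 FPKM in medium and at 78.2, 71.1 and 66.6 against 101, 107 and 99.5 FPKM with cytokines. Both were higher in every shRNA-*Ddx5* library, *Rpa3* by 0.68 ± 0.11 and 0.38 ± 0.11 on the log2 scale (adjusted p = 0.000452 and 0.0132) and *Rpa1* by 0.42 ± 0.080 and 0.51 ± 0.080 (adjusted p = 0.00143 and 0.000398). *Rpa2* passed in neither medium (0.24 ± 0.11, adjusted p = 0.0857, and 0.16 ± 0.11, adjusted p = 0.244). The flap nuclease *Fen1* rose by 0.41 ± 0.11 (adjusted p = 0.00977) and 0.34 ± 0.11 (adjusted p = 0.0262, lost in 6 of the 20 alternatives), and the DNA ligase *Lig1* rose by 0.45 ± 0.13 with cytokines (adjusted p = 0.0132) and stood at 0.32 ± 0.13 in medium (adjusted p = 0.0546).

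Of the 5 genes of chromatin assembly and repair at the fork, 1 fell in medium (20%) and 1 rose with cytokines (20%). These shares are near those of all genes tested (21.7% and 23.5%). *Slbp*, which binds the stem-loop of histone mRNA, was at 78.3, 80.1 and 87.9 FPKM in shRNA-NC and 64.3, 66.4 and 68.8 FPKM in shRNA-*Ddx5* cells in medium, and at 83.9, 66.6 and 67.5 against 69.9, 62.8 and 67.8 FPKM with cytokines. It fell in medium, with a log2 fold change of -0.30 ± 0.096 (adjusted p = 0.0237) without overlap. With cytokines the groups overlapped (-0.11 ± 0.096, adjusted p = 0.364). *Chaf1a*, the large subunit of the CAF-1 histone chaperone, was at 33.3, 30.5 and 25.6 against 35.1, 27.1 and 28.997 FPKM in medium and at 23.1, 26.2 and 29.4 against 33.5, 35.7 and 32.9 FPKM with cytokines. It passed with cytokines (0.37 ± 0.12, adjusted p = 0.0296) and not in medium (0.029 ± 0.12, adjusted p = 0.869). The call of *Chaf1a* was lost in 9 of the 20 alternatives. *Ung*, the uracil-DNA glycosylase, was at 10.7, 8.56 and 6.16 against 11.8, 8.17 and 9.59 FPKM in medium and at 13.3, 15.6 and 15.98 against 11.9, 10.9 and 10.05 FPKM with cytokines. Its shRNA-*Ddx5* libraries lay below those of shRNA-NC with cytokines, but neither difference passed (0.21 ± 0.17, adjusted p = 0.329, and -0.42 ± 0.17, adjusted p = 0.0649).

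Among the drivers of the G1-to-S step, *E2f1* rose in both media and neither cyclin gene did. *E2f1*, a transcription factor of S-phase genes, was at 22.997, 21.04 and 15.1 FPKM in shRNA-NC and 33.4, 26.8 and 29.7 FPKM in shRNA-*Ddx5* cells in medium, and at 21.5, 23.5 and 24.2 against 31.5, 30.6 and 28.9 FPKM with cytokines. The shRNA-*Ddx5* libraries were the higher ones in each medium, with log2 fold changes of 0.59 ± 0.13 (adjusted p = 0.00385) and 0.38 ± 0.13 (adjusted p = 0.0370), and the second was lost in 10 of the 20 alternatives. *Ccne1* (gene 12447, chr7:37797409-37806915), which encodes cyclin E1, was at 27.4, 24.9 and 28.2 against 34.4, 31.3 and 37.4 FPKM in medium and at 43.6, 38.4 and 36.5 against 36.7, 36.5 and 30.5 FPKM with cytokines. It rose by 0.35 ± 0.10 in medium (adjusted p = 0.0164), without overlap. With cytokines the groups overlapped, and the difference of -0.19 ± 0.10 did not pass (adjusted p = 0.154). *Ccne2* was at 8.68, 9.81 and 7.58 against 8.51, 16.4 and 11.9 FPKM in medium and at 13.5, 8.90 and 8.46 against 9.26, 9.88 and 11.97 FPKM with cytokines. Its libraries overlapped in both media (0.41 ± 0.22, adjusted p = 0.137, and 0.030 ± 0.22, adjusted p = 0.923).

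**Figure D3:**
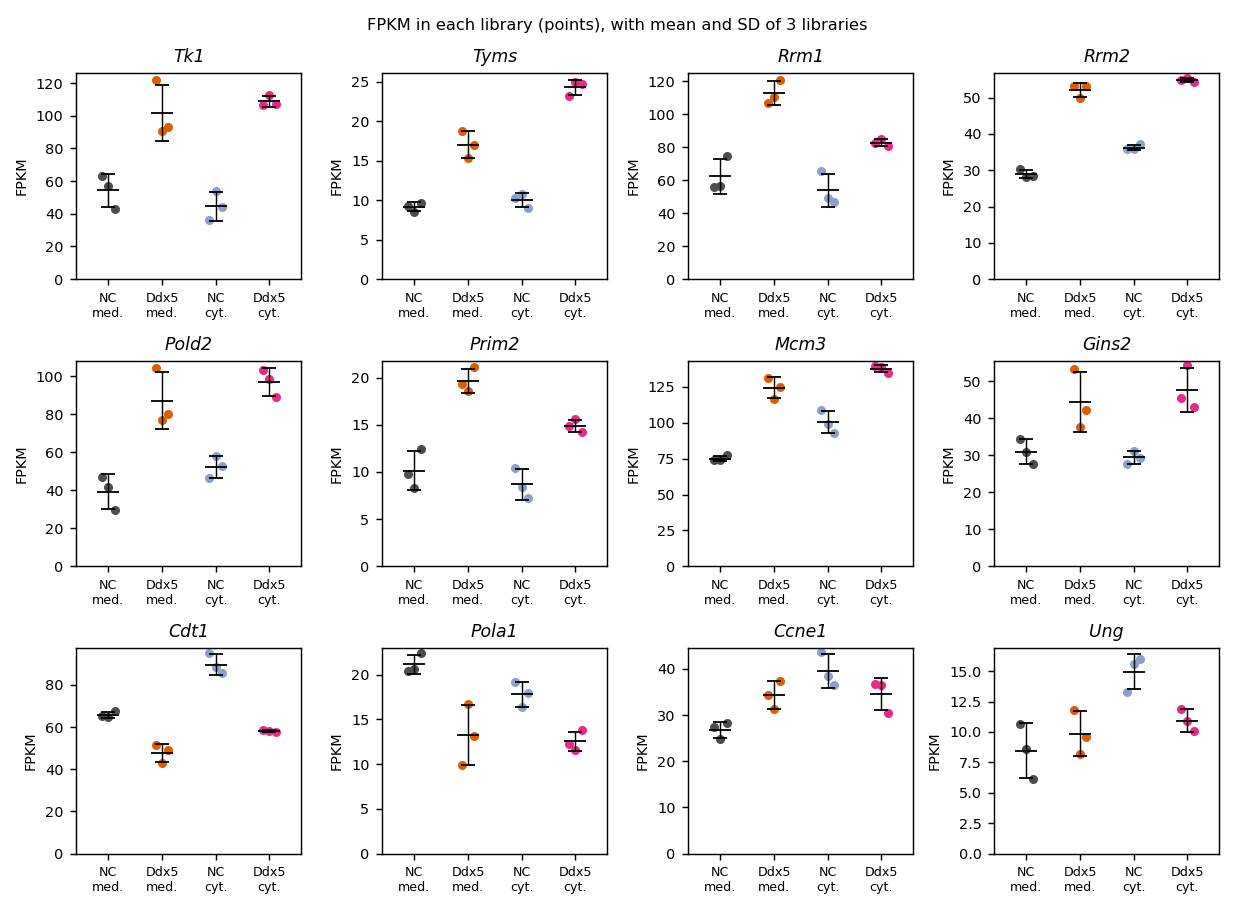
FPKM of 12 genes in each of the 12 libraries (points), by line and medium (NC, shRNA-NC; Ddx5, shRNA-Ddx5; med., medium; cyt., cytokines), with the mean and SD of 3 libraries. Tk1, Tyms, Rrm1, Rrm2, Pold2, Prim2, Mcm3 and Gins2 are higher in shRNA-Ddx5 cells in both media, Cdt1 and Pola1 are lower, and the means of Ccne1 and Ung are highest in shRNA-NC cells with cytokines.

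Set side by side, 18 genes rose in both media, namely *Mcm3*, *Mcm10*, *Cdc45*, *Gins1*, *Gins2*, *Rfc2*, *Rfc4*, *Rfc5*, *Prim2*, *Pold2*, *Fen1*, *Rpa1*, *Rpa3*, *Rrm1*, *Rrm2*, *Tyms*, *Tk1* and *E2f1*. With cytokines the calls of *Mcm10* and *E2f1* among them were lost in 12 and 10 of the 20 alternatives. *Cdt1*, *Pola1* and *Pole* fell in both. A further 9 passed as rises in medium and not with cytokines (*Orc1*, *Orc6*, *Cdc6*, *Mcm2*, *Mcm4*, *Mcm5*, *Gins3*, *Rfc3* and *Ccne1*), and *Slbp* passed as a fall in medium alone. *Lig1* and *Chaf1a* passed with cytokines alone, and 16 genes passed in neither medium. No gene rose in one medium and fell in the other.

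Whether the knockdown acted differently in the 2 media was tested with the interaction term. The log2 fold change was larger in medium than with cytokines for 32 of the 49 genes and for 6424 of the 12368 genes tested. Only *Ccne1* passed, at -0.54 ± 0.14 (adjusted p = 0.0449), and 0 of the 49 genes passed in the other direction, while 4.75% and 3.46% of all genes tested did so in the respective directions (8.21% together). An unadjusted p under 0.05 was reached by 10 of the 49 and by 2916 of the 12368 genes tested. The other most negative terms, which did not pass, were those of *Ung* at -0.63 ± 0.24 (adjusted p = 0.138), *Orc1* at -0.46 ± 0.15 (adjusted p = 0.0938) and *Mcm7* at -0.44 ± 0.15 (adjusted p = 0.0967). The largest positive terms were those of *Tk1* at 0.39 ± 0.24 (adjusted p = 0.360) and *Tyms* at 0.38 ± 0.13 (adjusted p = 0.0967). The *Ccne1* call was lost in 13 of 19 alternatives, the lowest and highest adjusted p over them being 0.0365 and 0.119.

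The second question was how IL-1β with TNF-α changed these genes in each line. In shRNA-NC cells 11 rose (22.4%) and 4 fell (8.16%), against 18.6% and 15.2% of all genes tested (33.8% together). The median was 0.061 against 0.020 for all genes tested. The sign of this median was not stable, at -0.11 with quantile normalization, -0.021 with scaling to the sum of fragments and -0.031 without shRNA-NC cytokine replicate 1. The groups did not overlap for 15 genes that were higher and 10 that were lower with cytokines (23.7% and 22.0% of all genes tested). The split moved with the scaling, to 7 up and 13 down with quantile normalization and to 10 and 10 with scaling to the sum of fragments. *Ung* (0.78 ± 0.17, adjusted p = 0.00486), *Orc1* (0.76 ± 0.11, adjusted p = 0.000358), *Ccne1* (0.54 ± 0.10, adjusted p = 0.00208), *Rfc3* (0.47 ± 0.10, adjusted p = 0.00527) and *Cdt1* (0.44 ± 0.078, adjusted p = 0.00140) rose most. *Rfc3*, a small loader subunit, was at 32.01, 30.3 and 32.4 FPKM in medium and 53.4, 39.96 and 40.1 FPKM with cytokines. *Cdc6*, *Mcm3*, *Mcm7*, *Fen1*, *Rrm2* and *Chaf1b* rose as well, the last with a call lost in 8 of the 20 alternatives. Licensing held 3 of the 11 rises among its 4 genes. With so few genes this share cannot be told apart from the 18.6% of all genes tested, and it was not tested.

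The 4 falls in shRNA-NC cells were *Rpa1* (-0.36 ± 0.080, adjusted p = 0.00545), *Pole2* (-0.35 ± 0.12, adjusted p = 0.0477), *Rfc4* (-0.31 ± 0.088, adjusted p = 0.0189) and *Pole* (-0.25 ± 0.075, adjusted p = 0.0245). *Pole2*, an accessory subunit of polymerase epsilon, was at 4.82, 5.19 and 6.33 FPKM in medium and 4.73, 3.20 and 4.32 FPKM with cytokines in shRNA-NC cells, and at 6.43, 6.87 and 7.49 FPKM and then 4.85, 5.13 and 4.75 FPKM in shRNA-*Ddx5* cells. For all 4 genes the cytokine libraries of shRNA-NC cells lay below the medium libraries without overlap. The call of *Pole2* was lost in 14 of the 20 alternatives. The number of falls was 2 without shRNA-NC medium replicate 2 or 3 and 8 without shRNA-NC cytokine replicate 1.

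In shRNA-*Ddx5* cells 2 genes rose (4.08%) and 6 fell (12.2%) with cytokines, against 13.5% and 13.5% of all genes tested (27.0% together). The share that fell was near that of all genes tested, and the share that rose was below it. The median was -0.037. No overlap was found for 7 genes that were higher and 12 that were lower (23.3% and 24.0% of all genes tested). *Tyms* rose by 0.49 ± 0.090 (adjusted p = 0.00178) and *Cdt1* by 0.28 ± 0.078 (adjusted p = 0.0202). The falls were *Rrm1* (-0.44 ± 0.14, adjusted p = 0.0330), *Rfc2* (-0.42 ± 0.090, adjusted p = 0.00516), *Pole2* (-0.42 ± 0.12, adjusted p = 0.0254), *Rpa3* (-0.34 ± 0.11, adjusted p = 0.0388), *Rpa1* (-0.27 ± 0.080, adjusted p = 0.0288) and *Pold3* (-0.25 ± 0.082, adjusted p = 0.0420). The calls of *Tyms* and *Rfc2* held in every alternative tried. The call of *Pold3* was lost in 13 of the 20 alternatives, that of *Rpa3* in 9, *Rrm1* in 7 and *Pole2* in 6. The number of falls was 1 without shRNA-*Ddx5* medium replicate 3 or cytokine replicate 1 or 3 and 2 without medium replicate 2 or cytokine replicate 2, whereas with quantile normalization the split was 1 up and 12 down. These comparisons share the medium and cytokine libraries with those of the knockdown, so their values are not independent of it.

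**Figure D4:**
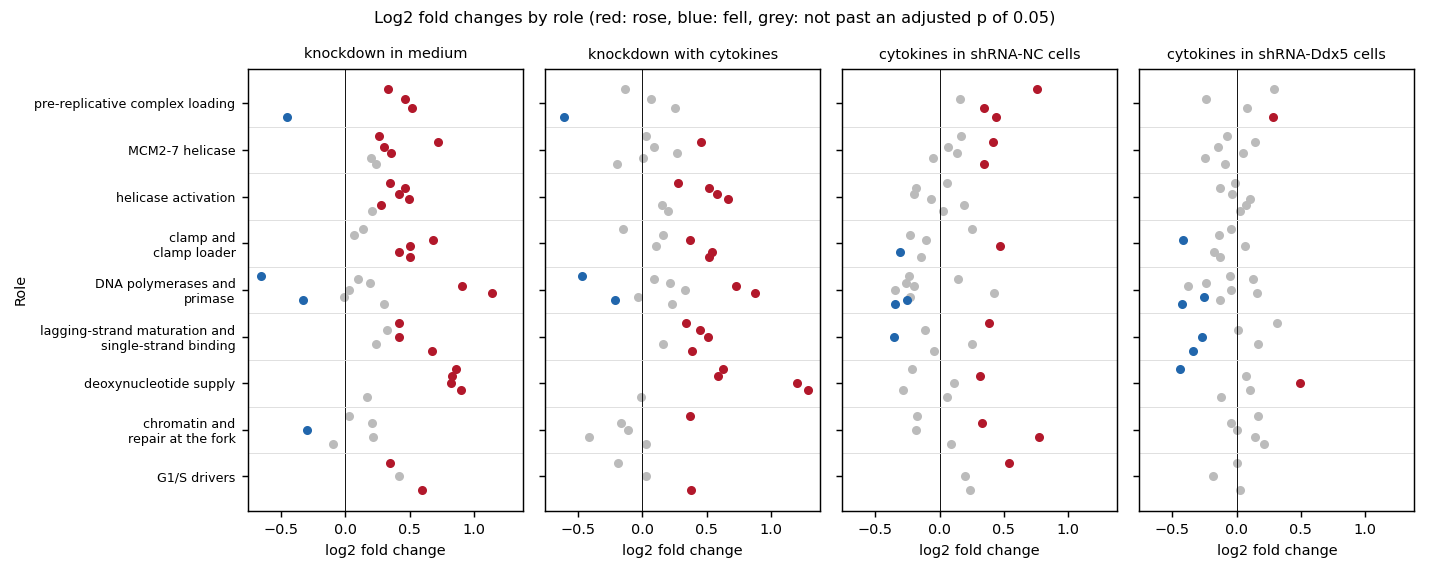
Log2 fold change of each of the 49 genes (points) in 9 role groups (rows) for the 4 comparisons (panels). Red points rose, blue points fell and grey points did not pass an adjusted p of 0.05; 4 of the 5 deoxynucleotide genes lie beyond 0.5 in both knockdown panels, and the 2 cytokine panels hold fewer coloured points.

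Other genes of replication and of the G1-to-S step were taken from 5 lists of 71 symbols, of which 69 were tested. After the knockdown in medium 28 rose (40.6%) and 12 fell (17.4%), against 25.3% and 21.7% of all genes tested. With cytokines 23 rose (33.3%) and 11 fell (15.9%), against 23.5% and 22.1%. The medians were 0.17 and 0.045, against 0.028 and 0.010. The same shares of all genes tested apply to the single lists that follow. Of 17 other licensing, firing and fork protection genes, 3 rose (17.6%) and 1 fell (5.88%) in medium, both below the shares of all genes tested. That fall was *Dbf4*, the activator of the CDC7 kinase, at 71.5, 71.6 and 75.7 FPKM in shRNA-NC and 32.7, 40.004 and 41.3 FPKM in shRNA-*Ddx5* cells (-0.93 ± 0.15, adjusted p = 0.000476), and *Orc2* rose by 0.44 ± 0.13 (adjusted p = 0.0196). Of 11 polymerase, clamp and primer-removal genes, 5 rose (45.5%) and 1 fell (9.09%) in medium. In front were 2 subunits of the RNase H2 complex, *Rnaseh2c* at 1.40 ± 0.41 (adjusted p = 0.0150) and *Rnaseh2b* at 0.98 ± 0.13 (adjusted p = 9.79e-05). *Rnaseh2c* was spread widely, at 34.8, 27.8 and 9.27 FPKM in shRNA-NC and 85.2, 46.5 and 46.98 FPKM in shRNA-*Ddx5* cells.

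Of 7 further deoxynucleotide genes, 4 rose (57.1%) and 1 fell (14.3%) in medium. Among the rises were *Dctpp1*, a dCTP pyrophosphatase (0.84 ± 0.17, adjusted p = 0.00217), and *Dtymk*, the thymidylate kinase that acts after TK1 and TYMS (0.72 ± 0.094, adjusted p = 0.000114). Of 6 genes of histone supply and maintenance methylation, 2 rose (33.3%) and 1 fell (16.7%) in medium. The histone chaperone *Asf1b* rose by 0.57 ± 0.088 (adjusted p = 0.000362) and *Npat*, a coactivator of histone genes, was the fall (-0.68 ± 0.22, adjusted p = 0.0239). Of 28 genes of G1/S control 14 rose (50%) and 8 fell (28.6%) in medium, and 12 (42.9%) and 7 (25%) with cytokines. *Skp2*, of the ubiquitin ligase that targets p27, and *Ccnd3*, cyclin D3, rose most in medium (0.97 ± 0.11, adjusted p = 5.53e-05, and 0.87 ± 0.12, adjusted p = 0.000173).

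*Cdkn1a*, which encodes the inhibitor p21, was at 2.64, 2.15 and 2.12 FPKM in shRNA-NC and 1.64, 1.39 and 1.31 FPKM in shRNA-*Ddx5* cells in medium, and at 7.50, 6.999 and 6.80 against 1.49, 2.04 and 1.65 FPKM with cytokines. It fell in both media, with log2 fold changes of -0.43 ± 0.10 (adjusted p = 0.00492) and -1.58 ± 0.10 (adjusted p = 1.08e-06), and the interaction was -1.14 ± 0.14 (adjusted p = 0.000808). *Ccnd1*, cyclin D1, was at 16.9, 13.5 and 10.3 against 23.1, 20.9 and 21.9 FPKM in medium and at 30.2, 34.4 and 37.2 against 17.1, 16.4 and 16.05 FPKM with cytokines. It rose after the knockdown in medium (0.68 ± 0.14, adjusted p = 0.00214) and fell with cytokines (-0.99 ± 0.14, adjusted p = 0.000184), with an interaction of -1.67 ± 0.20 (adjusted p = 0.000568).

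A list of 32 G2/M and mitotic genes was set beside the 49, since both are read as proliferation genes. After the knockdown 18 rose (56.25%) and 4 fell (12.5%) in medium, with a median of 0.33. With cytokines 24 rose (75%) and 1 fell (3.1%), with a median of 0.57. Of all genes tested 25.3% rose and 21.7% fell in medium, and 23.5% and 22.1% with cytokines. The replication genes were at 27 and 4 of 49 and 20 and 3 of 49 in the same comparisons. Cytokines in shRNA-NC cells left 1 mitotic gene higher and 23 lower (71.9%), at a median of -0.51, against 18.6% and 15.2% of all genes tested. The replication genes had 11 up and 4 down there. That split became 7 and 13 with quantile normalization and 10 and 10 with scaling to the sum of fragments. The mitotic cyclin *Ccnb1* was at 72.3, 68.6 and 82.4 FPKM in shRNA-NC and 132, 139 and 149.7 FPKM in shRNA-*Ddx5* cells in medium and at 67.6, 68.9 and 60.3 against 130.2, 129 and 126 FPKM with cytokines. It rose in both, by 0.91 ± 0.088 (adjusted p = 1.57e-05) and 0.96 ± 0.088 (adjusted p = 1.06e-05). *Mki67*, the usual proliferation marker, went the other way in medium, from 29.03, 34.9 and 22.2 to 8.58, 21.4 and 13.2 FPKM (-1.01 ± 0.26, adjusted p = 0.00822), and the centromere genes *Cenpf* (-1.46 ± 0.28, adjusted p = 0.00134) and *Cenpe* (-1.22 ± 0.28, adjusted p = 0.00431) fell as well. With cytokines only 1 gene of the mitotic list fell, and its lowest log2 fold change was -0.74, so these falls were not all called there. The difference between the 2 lists was not tested.

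Gene length moved with the knockdown effect. Over all genes tested Spearman's rho between length and log2 fold change was -0.233 in medium and -0.229 with cytokines, and over the 49 genes it was -0.227 and -0.114, across genes that share the same libraries. In medium 10 of 15 replication genes under 2000 bases rose and 1 fell, 13 of 23 from 2000 to under 4000 bases rose and 1 fell, and 4 of 11 of at least 4000 bases rose and 2 fell. Over all genes tested the shares that rose in these classes were 28.3%, 29.7% and 19.96%, and the shares that fell were 9.27%, 19.8% and 32.3%. Among the 11 long replication genes the 2 falls made 18.2%, against 32.3% of all long genes. With so few genes the 2 shares cannot be told apart, and the difference was not tested. *Tyms*, listed at 7450 bases, and *Prim2*, at 4502, rose, whereas *Pola1*, at 5941, and *Pole*, at 7129, fell. After each library's trend on length was removed, 20 of the 49 rose and 4 fell in medium and 23 and 4 with cytokines.

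**Figure D5:**
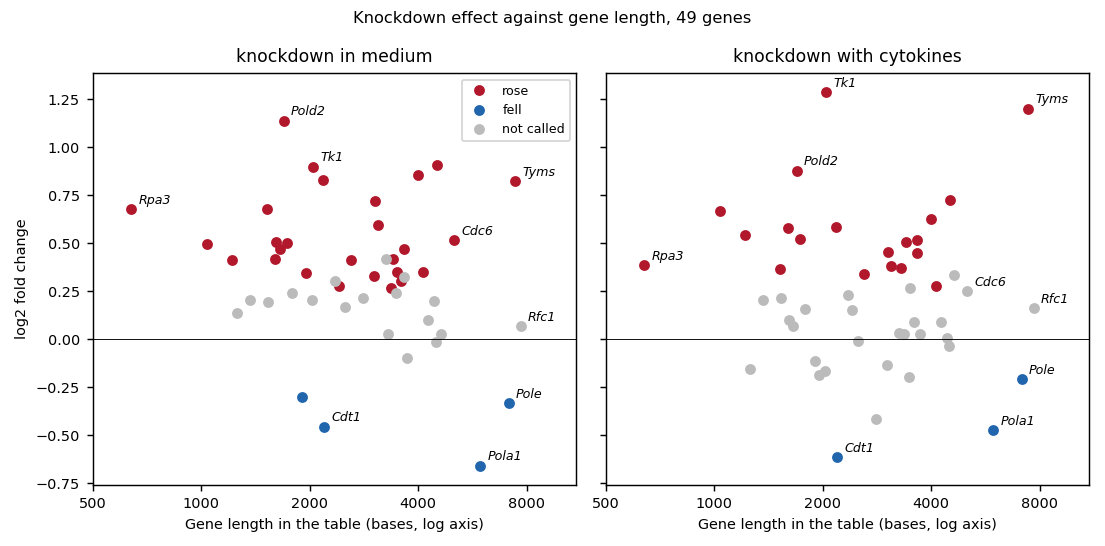
Log2 fold change after the Ddx5 knockdown in medium (left) and with cytokines (right) against gene length in bases on a log axis, 1 point per gene, coloured by call. Of the 4 longest genes, Tyms rose, Pola1 and Pole fell, and Rfc1 passed in neither medium.

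Overlapping genes may limit some of these values. Of the 49 genes, 13 are overlapped by a protein-coding gene on the opposite strand. The strand setting of the counting is not given in the sources used here, so reads from bases shared by both partners may be mixed. Overlap was taken over whole gene spans, and how many reads fall in shared bases was not examined. *Pold2* overlaps *Aebp1*, which was at 91.3, 96.3 and 83.4 FPKM in shRNA-NC and 94.9, 80.6 and 79.1 FPKM in shRNA-*Ddx5* cells in medium (-0.091 ± 0.14, adjusted p = 0.632) and rose with cytokines (0.48 ± 0.14, adjusted p = 0.0174). *Tk1* overlaps *Afmid*, whose values of 2.41, 2.57 and 2.28 against 3.11, 3.06 and 2.91 FPKM in medium were far lower, with changes of 0.24 ± 0.083 (adjusted p = 0.0364) and 0.71 ± 0.083 with cytokines (adjusted p = 5.08e-05). *Rpa1* overlaps *Smyd4* (0.15 ± 0.091, adjusted p = 0.184, and 0.27 ± 0.091, adjusted p = 0.0300). *Fen1* overlaps *Tmem258*, with group means of 40.3 and 68.2 FPKM in medium and 60.6 and 113 FPKM with cytokines, above those of *Fen1* in each shRNA-*Ddx5* group, and log2 differences of 1.03 and 0.93 that did not pass (adjusted p = 0.12 and 0.158). *Gins2* overlaps *Gse1*, which rose in both media (0.51 and 0.37, adjusted p = 0.00878 and 0.0390) at means of 2.61 to 7.86 FPKM. *Rfc4* overlaps the more abundant *Eif4a2*, which fell from a mean of 118 to 73.3 FPKM in medium (-0.68, adjusted p = 0.00211) and from 132 to 66.8 FPKM with cytokines (-0.96, adjusted p = 0.000230). The others are *Mcm7*, *Cdc45*, *Pole2*, *Lig1*, *Chaf1a*, *Ung* and *Ccne2*. On the same strand, *E2f1* is overlapped by the protein-coding *Necab3*, at group means of 1.99 to 3.01 FPKM. Its log2 differences of -0.24 in medium and -0.18 with cytokines did not pass (adjusted p = 0.260 and 0.417). The part of the partners in these values was not tested.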

How the data were processed

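Poly(A) RNA-seq of 12 ATDC5 libraries was analysed, 3 in each of 4 groups taken from the labels. The authors aligned reads with HISAT2 2.0.5 and counted them with featureCounts (1.5.0-p3 in the submitters' processing notes), and deposited FPKM values per gene. The strand setting is not given in the sources used here, and positions in the table are those of GRCm39 although the notes name mm10. Columns with the authors' own comparisons were not used. FPKM steps gave whole fragments within 0.01, which set the depths of 14119199 to 19276520.

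Values were taken as log2(FPKM + 1), which understates changes of low genes, for the 12368 genes at 1 FPKM or more in at least 3 libraries. Group means of all 12 libraries were fitted with limma 3.58.1 in R 4.3.3 (empirical Bayes with trend), with Benjamini-Hochberg adjustment over all genes tested and a threshold of 0.05. Errors of fold changes are standard errors. The fit was also run on simulated data. These held far fewer changed genes than were called here and independent noise for each gene, so they do not bear on the calls given. Alternatives were a pseudocount of 0.1, no filter, quantile normalization, scaling to the sum of fragments, a replicate block, voom on recovered fragments, only the libraries of a contrast, each library left out and, chosen after seeing the data, a length correction.

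The members and lists were chosen with earlier results of these data known. Values are given for the members with the largest rise and fall of each role after the knockdown, for MCM2-7, *Pcna*, *Rrm2*, *Ccne1*, *Ccne2* and *E2f1*, for called interactions, and for the 5 largest rises and falls of each comparison whose groups do not overlap. Of the other lists, *Cdkn1a*, *Ccnd1*, *Mki67*, *Ccnb1* and at most 2 largest changes per list are named. Promoters are from RefSeq on GRCm38.p6 and no position was carried between builds.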

Additional observations from a re-analysis of the deposited data

Results flagged for a closer look

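*Ccne1*, cyclin E1, was singled out because its response to the knockdown differed between the media by the test of the interaction term, at -0.54 ± 0.14 on the log2 scale (adjusted p = 0.0449, limma, 12 libraries). The gene rose after the knockdown in medium, in 3 of 3 libraries above the shRNA-NC range, and was at -0.19 ± 0.10 with cytokines (adjusted p = 0.154), where the groups overlapped. Its level in shRNA-NC cells rose with cytokines, from 27.4, 24.9 and 28.2 to 43.6, 38.4 and 36.5 FPKM. Over the 19 alternatives the term ran from -0.60 to -0.45 and the adjusted p from 0.0365 to 0.119, so that this result stood near the threshold. Groups of 3 libraries were too small to look for single libraries that stand apart.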

How the results depend on the processing

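Each count was recomputed under 20 alternatives (19 for the interaction, since a fit on only the libraries of the contrast was not run there). After the knockdown in medium the rises stayed between 21 and 29 and the falls at 3 or 4 when 1 library was left out, and over the other alternatives they were 20 to 28 and 4 or 5. With cytokines the rises were 16 to 21 with a library left out and 15 to 23 over the other alternatives (15 with quantile normalization, 23 with the length correction), and the 3 falls became 7 with quantile normalization and 6 with scaling to the sum of fragments, and 1 to 4 with a library left out (1 without shRNA-NC cytokine replicate 1 or 3 or shRNA-*Ddx5* cytokine replicate 2). For cytokines in shRNA-NC cells, 11 rises became 7 with quantile normalization (8 to 11 with a library left out). The 4 falls there became 13 with quantile normalization, 10 with scaling to the sum of fragments, 7 with the length correction, 2 with the replicate block and 2 to 8 with a library left out. For cytokines in shRNA-*Ddx5* cells, 2 rises became 1 with quantile normalization and 4 with the length correction (1 to 3 with a library left out, 1 without shRNA-*Ddx5* medium replicate 2 or any of the 3 cytokine libraries). The 6 falls became 2 without the filter, 12 with quantile normalization, 3 with the replicate block and 1 to 9 with a library left out (1 without shRNA-*Ddx5* medium replicate 3 or cytokine replicate 1 or 3, 2 without medium replicate 2 or cytokine replicate 2). The 1 gene with a negative interaction, *Ccne1*, was lost (0) at a pseudocount of 0.1, without the filter and in 10 of the 12 fits without a library (0 to 1). *Mcm2* reversed to -0.024 in medium with quantile normalization (adjusted p = 0.772). The cause of these shifts was not tested.

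Calls held under every alternative for 18 of 31 genes after the knockdown in medium, 16 of 23 with cytokines, 7 of 15 and 2 of 8 for cytokines in shRNA-NC and shRNA-*Ddx5* cells, and 0 of 1 for the interaction. The labels give no pairing of libraries beyond the replicate number. Between the medium groups, the correlation of deviations from group means averaged 0.268 for the same number and -0.143 for different numbers. Between the cytokine groups it averaged 0.00508 and -0.0023. Between medium and cytokines, the same number gave -0.178 in shRNA-NC and -0.087 in shRNA-*Ddx5* cells. Whether libraries were paired was not tested. With the replicate block, 26 genes rose and 4 fell after the knockdown in medium, and 18 rose and 2 fell with cytokines, while in the interaction the *Ccne1* call was lost (adjusted p = 0.0739) and *Orc1* passed (adjusted p = 0.0485). With 3 libraries a group, small changes remain uncertain, and p-values set each difference against the spread between these libraries. Whether the libraries of a line stem from separate transductions is not given in the sources used here.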

Other observations

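Among the 69 other replication and G1/S genes tested, 2 had a positive (2.90%) and 8 a negative (11.6%) interaction between the knockdown and cytokines. Of all genes tested 3.46% and 4.75% did, so the positive share was not above that of all genes. The genes named here were chosen after their values were seen. Besides *Cdkn1a* and *Ccnd1*, the negative terms included *E2f6*, an E2F family member (-0.96 ± 0.15, adjusted p = 0.00343), *Skp2* (-0.72 ± 0.16, adjusted p = 0.0192), the kinase gene *Cdk6* (-0.68 ± 0.17, adjusted p = 0.0329) and the phosphatase gene *Cdc25a* (-0.50 ± 0.12, adjusted p = 0.0299). The positive terms were those of *Cdkn2b*, which encodes p15 (0.94 ± 0.25, adjusted p = 0.0403), and *Cdkn1b*, which encodes p27 (0.51 ± 0.098, adjusted p = 0.00926). Both encode inhibitors of cyclin-dependent kinases, but so does *Cdkn1a*, whose term was negative. *Cdkn1b* was at 55.6, 51.8 and 58.6 FPKM in shRNA-NC and 50.2, 55.5 and 53.9 FPKM in shRNA-*Ddx5* cells in medium, and at 22.2, 23.4 and 22.4 against 31.002, 31.5 and 31.7 FPKM with cytokines.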
